A study of Mus musculus with 6 samples.

Results

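Intronic circRNAs (ciRNAs) are circles that lie within 1 intron of a host gene, and they made up 1855 of the 27999 entries (6.63%) of a circRNA catalogue of mouse ovaries. They were taken as the entries whose circle type the authors' table gives as ciRNA. Entries of the same host, chromosome and strand whose start and end each differed by 2 nt or less were joined. Entries linked through another entry were joined too, even where they differed by more. This left 1775 circles from 1352 host genes. The other 26144 entries were exonic circRNAs from 6936 hosts. The libraries came from whole ovaries of C57BL/6 mice at 6 weeks (adult, n = 3) and at postnatal day 5 (neonatal, n = 3), and no genetic change or drug is named in the labels for either age. Total RNA had been digested with RNase R, an exonuclease that removes linear RNA, before random-primed, strand-kept libraries were read as 150 nt pairs. The labels do not say whether a library came from 1 animal or from pooled ovaries. In the deposited tables the libraries are split into groups A and B, and these letters match no sample label. Which age is A and which is B is therefore left unsaid, and no value per library is given. The comparisons of A with B below are those of the authors, and fewer cells of a type cannot be told apart from less RNA per cell in whole ovaries.

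In splicing, an intron is released as a lariat, a loop in which the first base of the intron is joined to a branch point adenosine shortly before the 3′ splice site. The debranching enzyme Dbr1 normally opens the loop, and the RNA is then degraded. In the lariat model a ciRNA is a loop that escaped debranching and lost the tail after the branch point. It is read from reads that cross from the branch point back to the 5′ splice site. The entries here were taken by their type in the authors' table, and whether each is such a loop was not tested. In human cells some ciRNAs stay in the nucleus at their own gene and raise its transcription. Exonic circRNAs arise differently, by joining a splice donor back to an upstream splice acceptor.

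The sequences at the circle ends are shown first, because the position of the end in the intron separates the ciRNAs into kinds. The genome sequence was not used here, and intron sequence was read where an annotated GENCODE M21 transcript on the same strand covers the whole intron as exon (237 of 1775 circles, 13.4%). The lines below give the last 50 nt of the intron (GRCm38, 5′ to 3′ on the gene's strand), with the last 3 bases of the circle in capitals. The first 4 genes carry ciRNAs that the authors' table marks as different between the groups. Cyp11a1 and Gas5 are shown for circles that run to the end of the intron or to 1 nt before it.
Osbpl7 ciRNA735, chr11:97056478-97056527, plus strand: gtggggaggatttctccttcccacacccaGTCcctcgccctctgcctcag
Osbpl7 ciRNA4, same window: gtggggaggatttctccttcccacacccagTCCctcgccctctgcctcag
Trappc4 ciRNA270, chr9:44404099-44404148, minus strand: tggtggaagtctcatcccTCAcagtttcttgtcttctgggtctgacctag
Sugp2 ciRNA989, chr8:70262821-70262870, plus strand: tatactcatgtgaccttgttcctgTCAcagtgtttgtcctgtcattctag
Ppan ciRNA57, chr9:20890589-20890638, plus strand: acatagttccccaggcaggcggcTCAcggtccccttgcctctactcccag
Cyp11a1 ciRNA969, chr9:58019243-58019292, plus strand: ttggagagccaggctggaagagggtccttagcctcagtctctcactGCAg
Gas5 ciRNA1251, chr1:161035702-161035751, plus strand: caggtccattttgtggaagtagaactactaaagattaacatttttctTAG
The circles of Trappc4, Sugp2 and Ppan ended on the adenine of the same 3 letters, TCA, at 29, 23 and 24 nt before the end of their introns. The 2 Osbpl7 entries ended 1 nt apart, on C, and counted as 1 circle.
The whole Osbpl7 circle of 162 nt (chr11:97056348-97056509, plus strand) is printed with its first 6 and last 3 bases in capitals, which are the bases joined at the junction.
Osbpl7 ciRNA735, whole circle: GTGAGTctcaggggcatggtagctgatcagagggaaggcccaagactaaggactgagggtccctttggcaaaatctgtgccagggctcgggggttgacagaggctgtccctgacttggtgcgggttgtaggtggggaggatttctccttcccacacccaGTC

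All 1855 entries started exactly on the 5′ splice site of the intron that the table lists for them, and 1851 of these introns are annotated in GENCODE M21. A start on the donor is what a lariat loop has. It may also have been a condition of the calling (rules not given in the sources used here), so it only describes the catalogue. On the named isoform of the host the intron was found for 1832 entries (98.8%). Of the 237 introns with sequence, 228 began with GT, 5 with GC, and 233 ended with AG.

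The 3′ ends of the circles fell into separate zones of the intron. Most circles, 1125 of 1775 (63.4%, exact 95% interval 61.1 to 65.6), ended 10 to 100 nt before the intron end. Their median distance was 25 nt (quartiles 22 and 31), the most frequent distance was 24 nt (89 circles), and 950 circles (53.5%) lay between 18 and 40 nt. A second kind of 432 circles (24.3%, interval 22.4 to 26.4) ended at most 9 nt from the intron end. Of these 432, 237 held the whole intron to its last base, and 2 ran past the listed end by 1 or 2 nt. Between these zones few circles ended, with 2 at 10 nt and 3 at 9 nt. The remaining 218 circles (12.3%) ended more than 100 nt upstream. Of these, 22 ended at most 9 nt from another annotated acceptor of the same donor and 14 at 10 to 100 nt from one, and for 182 no such acceptor lay within 100 nt. The intervals cover counting error only.

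**Figure D1:**
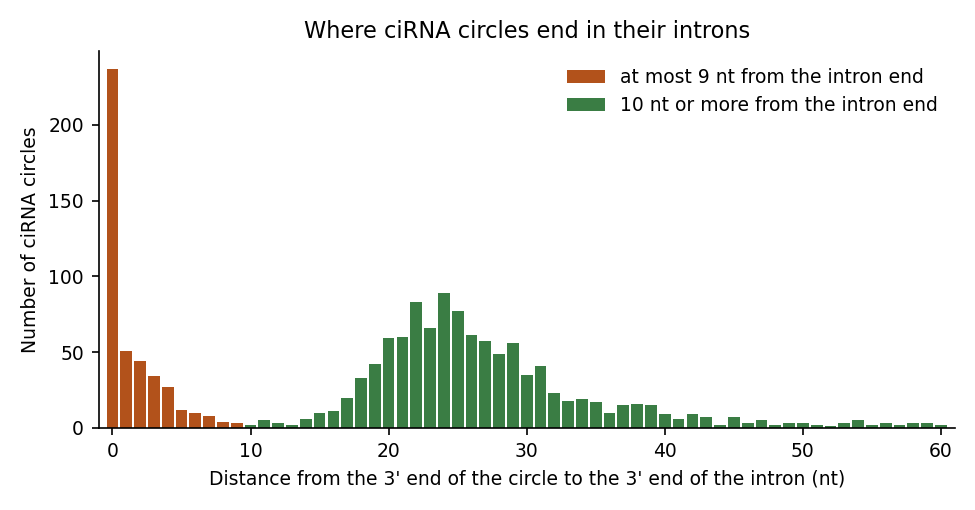
Number of ciRNA circles (y axis) by the distance from the 3′ end of the circle to the 3′ end of its intron (x axis, nt, shown from 0 to 60). The tall bar at 0 nt holds 237 circles, and the broad peak has its top of 89 circles at 24 nt.

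The ends were also counted by the number of libraries in which the entries of a circle were found. A value in 1 of 6 libraries gives p = 0.423 in an unequal-variance test, whatever its size, and entries with this p in the authors' deposited table (within 1e-09) were counted as found in 1 library. By this measure 1689 of 1855 ciRNA entries (91.1%) were found in 1 library, against 15666 of 26144 exonic circRNAs (59.9%). Among the 157 circles with an entry in 2 or more libraries, 128 (81.5%, interval 74.6 to 87.3) ended 10 to 100 nt before the intron end, 22 (14.0%) at most 9 nt from it and 7 (4.46%) further upstream. Among the 1618 circles whose entries were each found in 1 library these shares were 61.6%, 25.3% and 13.0%. Some of these circles join entries of different libraries, as in Atg2b, with ciRNA306 in A and ciRNA1320 in B. The difference between the sets was not tested.

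Bases around the ends were compared with those at the same distance in other introns of the same isoforms, without a test. The 156 circles that ended 10 to 100 nt before the intron end and have sequence were set against 300 windows in 280 other introns, each read at the same distance from its own end. The last base of the circle was adenine in 48.1% of circles (75 of 156), against 22.3% of the other introns (67 of 300). At 2 bases before it thymine stood in 44.2% of circles and 31.3% of the other introns. The letters TNA, read on the gene's strand with the A as the last base of the circle, were found in 47 circles (30.1%, exact interval 23.05 to 38.0) and in 26 of the other windows (8.67%, interval 5.74 to 12.4). With the A allowed up to 2 nt from the end the shares were 52.6% and 33.7%. Directly after the end, cytosine stood in 41.0% of circles and 30.7% of the other introns. A match of these letters is a description of the sequence and not a mapped branch point. The introns with sequence are those that GENCODE also annotates as retained or covered, so they may not stand for all 1775.

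**Figure D2:**
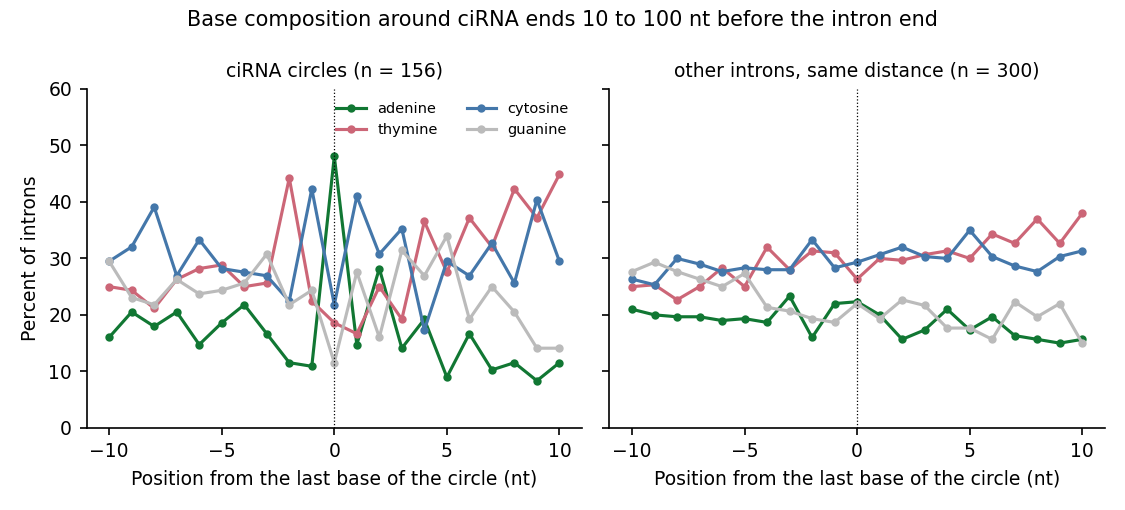
Percent of introns (y axis) with each base at each position from the last base of the circle (x axis, nt, 0 is the last base), for 156 ciRNA circles that end 10 to 100 nt before the intron end (left) and 300 windows at the same distance in other introns of the same isoforms (right). Adenine reaches 48.1% at position 0 on the left and 22.3% on the right.

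Wider windows showed smaller differences. The first 20 nt of the 156 circles were G or T in 60.2%, against 58.9% in the other introns, and the last 20 nt before the end were C in 28.0%, against 27.9%. Elements rich in G and U near the 5′ splice site and rich in C near the branch point are known from human ciRNAs, and these shares do not show that such elements are present or absent here. The median GC content of the introns was 54.5% for circles of the 10 to 100 nt zone, 50.1% for the 54 circles at the intron end, 46.1% for the 27 further upstream and 53.4% for the other introns.

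ciRNAs were short and came from short introns. Their median span was 419 nt (quartiles 282.5 and 655.5), and 90.6% spanned 1000 nt or less. The genomic spans of exonic circRNAs had a median of 6732 nt and 12.4% were as short. A genomic span includes the introns between the exons of a circle, so the measures differ in kind. Spliced lengths of exonic circRNAs are not given here. No entry of either type spanned 150 nt or less, the length of a read, and the shortest of both had 151 nt. The introns with ciRNAs had a median length of 492 nt, while it was 785 nt for the other introns of the same isoforms and 3433 nt for introns that flank exonic circRNAs. The intron of the circle was shorter than the median of the other introns of its isoform for 1024 of 1729 circles (59.2%, interval 56.9 to 61.6), with a median ratio of 0.774. This share depends on how short introns are treated, since no intron under 159 nt carried a ciRNA. With other introns under 159 nt left out, it was 75.1% of 1714 circles, and the other introns had a median of 1077 nt. The introns of circles that ended further upstream were longer, with a median of 1372 nt, where the 10 to 100 nt zone had 432 nt and the intron end 507 nt, although their circles were the shortest (medians of 337.5, 402 and 505.5 nt).

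**Figure D3:**
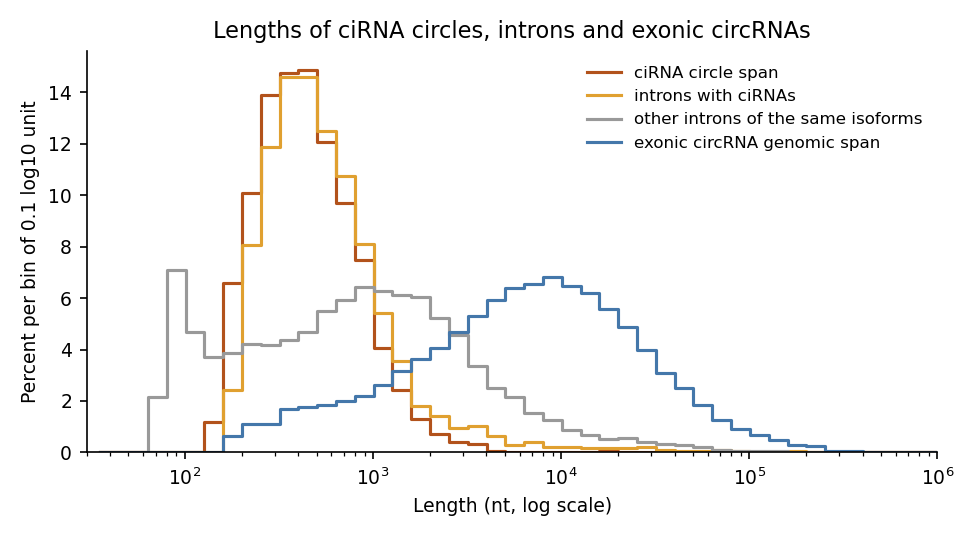
Percent of each set (y axis, per bin of 0.1 log10 unit) by length (x axis, nt, log scale) for ciRNA circles, the introns they come from, the other introns of the same isoforms and the genomic span of exonic circRNAs. The medians are 419, 492, 785 and 6732 nt in this order. The genomic span of an exonic circRNA includes the introns between its exons and is not its spliced length.

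The longest circle was ciRNA311 of Stk10, a serine/threonine kinase gene, with 19197 nt of an intron of 19210 nt. Next were ciRNA1540 of the calmodulin gene Calm3 (4154 nt) and ciRNA198 of Enoph1, an enzyme gene of methionine salvage (3915 nt). The shortest were circles of Arhgef11 and of the Wnt signalling gene Dvl3 (151 nt each) and of Ankrd9 (152 nt). The Stk10 circle thus stood apart in length. Circles lay in first, inner and last introns of the hosts. Of the 1753 on their named isoform, 155 (8.84%) lay in intron 1 and 214 (12.2%) in the last intron. Each isoform has 1 first and 1 last intron, so each of these makes up 6.33% of the introns of these isoforms. The shares were not tested against this. The isoforms had a median of 13 introns. By chromosome, 11 held the most circles (185, 10.4%, against 7.42% of exonic circRNAs), followed by 7 (171, 9.63% against 6.02%) and 2 (155, 8.73% against 7.93%). Chromosome 18 held 16 circles (0.901%, against 3.41% of exonic circRNAs), and the X chromosome held 35 (1.97% against 2.29%).

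Many hosts gave intronic circles alone. Exonic circRNAs were listed for 877 of the 1352 hosts (64.9%), and the other 475 (35.1%) had ciRNAs only. A single circle was listed for 1067 hosts (78.9%), against 35.9% of exonic hosts with a single exonic circRNA. Exonic entries were not joined for this count, so the shares are not fully alike. Of all 1775 ciRNA circles, 403 (22.7%) lay inside the genomic span of an exonic circRNA of the host. In an intron directly beside an exonic circRNA lay 216 of the 1775 (12.2%). Noncoding hosts gave 24 ciRNA entries (1.29%) from 17 genes, against 0.440% of exonic circRNAs. Among them were Gas5, a snoRNA host gene (4 entries), the abundant nuclear RNA gene Malat1 (3 entries), the imprinted gene Meg3 (1 entry) and Snhg12 (1 entry).

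The hosts with most circles had 5 or 6 each. Lrp1, which encodes an endocytic receptor, Safb, which encodes a nuclear matrix protein that binds RNA, Pacs2 and 2310067B10Rik had 6 circles each. The Lrp1 circles came from 5 introns of an isoform of 88, spanned 240 to 820 nt, and all 6 were higher in B by the authors' deposited table, each in 1 library. Aebp1, Cyp11a1, Dync1h1, Gas6, Hspg2, Mapkbp1, Pkd1, Ptch1, Rere, Sptan1 and Ubr4 had 5 circles each. Of these, Aebp1, Cyp11a1, Dync1h1 (a dynein heavy chain) and Sptan1 (a spectrin) had every entry higher in B, and Rere, a transcriptional corepressor gene, had 4 entries higher in A and 3 higher in B by the authors' deposited table. Exonic circRNAs of the same gene could lie elsewhere. In the authors' deposited table Rere had 33 exonic circRNAs, all higher in A, Lrp1 had 7 higher in A and 2 higher in B, and Cyp11a1 had none higher in A and 4 higher in B. Mapkbp1 had no exonic circRNA.

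Single introns could give several circles that shared the donor and differed in their ends. Among 1665 introns with ciRNAs, 97 (5.83%) gave 2 or more circles and 12 gave 3 or more. In 28 introns a circle to the intron end stood beside one of the 10 to 100 nt zone, and in 54 introns 2 or more circles ended within that zone, at a median gap of 7 nt. Intron 2 of Rxrb, a retinoid X receptor gene, gave 4 circles that ended 21, 27, 34 and 57 nt before the end of a 510 nt intron. Intron 3 of Ctdsp2, a phosphatase gene, gave 3, at 0, 18 and 21 nt, and intron 3 of Ppp2ca, the catalytic subunit gene of protein phosphatase 2A, gave 3, at 0, 21 and 28 nt. In intron 1 of Cited2, a transcriptional coregulator gene, circles ended at 4, 24 and 40 nt. The 3 Bgn circles ended far upstream, at 541, 578 and 584 nt before the end of an 808 nt intron of this proteoglycan gene. Introns of Mmp14, Macf1, Aebp1, Gstm1 and Ptbp1 gave 3 circles each, and those of Aebp1 ended 19, 22 and 25 nt before the end of intron 9. Ends of 1 intron share its donor, so these circles are not independent of each other.

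Some circles held a snoRNA gene, an RNA that guides chemical modification of other RNAs and is normally cut from an intron after debranching. A same-strand snoRNA or scaRNA gene lay wholly inside 32 entries (26 circles) of 19 hosts, 8 of them ribosomal protein genes. Intron 20 of Eif4g1, which encodes a scaffold of translation initiation, held Snord66 in all its 7 entries (3 circles), which ended 25 to 47 nt before the end of a 226 nt intron. The 75 nt of Snord66 began 57 nt into the circle (chr16:20684239-20684313, plus strand, GRCm38, sequence from GENCODE), and are shown because each of these circles holds them.
Snord66: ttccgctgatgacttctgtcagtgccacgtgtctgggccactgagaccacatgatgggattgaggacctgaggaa
Rpl7a gave 5 entries around 2 snoRNA genes, Gm23969 and Gm24134, and Rpl27a gave 3 around Snora3. Other examples were Snord82 in a 175 nt circle of the nucleolin gene Ncl, Snord100 in a 204 nt circle of Rps12 and Snord15b in a 376 nt circle of Rps3. Of the 32 entries, 8 were higher in A and 24 higher in B by the authors' deposited table (25% higher in A). Ribosomal protein genes, grouped after their values were seen, gave 44 entries (40 circles) from 31 hosts, 12 higher in A and 32 higher in B. Over all ciRNAs 33.5% were higher in A, and neither set was tested against this share.

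A miRNA gene lay inside 4 entries, 1 of which is annotated as Snord43 in a 723 nt circle of Rpl3. The mature sequences of the other 3 are given from RefSeq (GRCm38.p6) with the seed, bases 2 to 8, in capitals.
mmu-miR-7664-5p, in a 415 nt circle of Nsmf: cAGUUUACcugucuaugagau
mmu-miR-7664-3p, same circle: uCUCUUAGgcuggguuaacuaau
mmu-miR-5125, in a 949 nt circle of Srrm2: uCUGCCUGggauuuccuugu
mmu-miR-6955-5p, in a 412 nt circle of Gga1: aGGGCCUCaggacucaggagguga
mmu-miR-6955-3p, same circle: aCACCUGUcuccuuugcccaca
No seed was shared among these 5. The Gga1 circle held its whole intron, and the 74 nt of the Mir6955 gene, which begins 338 nt into the circle, were its last bases. The Nsmf circle ended 29 nt before the intron end, with the 63 nt of Mir7664 beginning at 116 nt. All 3 circles were found in 1 library, of group B, by the authors' deposited table.

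The design asks how ovarian circRNAs differ between adult and neonatal mice, and the authors compared groups A and B for each entry. ciRNAs lay mostly on the side of group B and exonic circRNAs mostly on the side of group A. By the authors' deposited table, ciRNA entries numbering 622 were higher in A and 1233 higher in B (33.5% higher in A, exact interval 31.4 to 35.7), against 17861 and 8283 exonic circRNAs (68.3%, interval 67.7 to 68.9). Values in A only were listed for 593 ciRNAs (31.97%), in B only for 1165 (62.8%) and in both groups for 97 (5.23%), against 47.5%, 21.8% and 30.6% of exonic circRNAs. Among entries in 2 or more libraries, 43 of 166 ciRNAs were higher in A (25.9%, interval 19.4 to 33.3), against 7418 of 10478 exonic circRNAs (70.8%). Counted as circles, 42 lay on the side of A and 115 on the side of B. Entries found in 1 library made up 579 of the 622 toward A and 1110 of the 1233 toward B. Whether the same library of B holds most of these entries, and how depth or RNase R digestion differed between libraries, was not tested. The intervals treat entries as independent, which entries of 1 library are not, and the difference between the types has no test.

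The next values compare the types within the same hosts, at short spans and with values in both groups. In the 877 hosts with both types, 431 of 1271 ciRNA entries were higher in A by the authors' deposited table (33.9%), against 2224 of 3511 exonic circRNAs of the same hosts (63.3%). In 2 or more libraries these shares were 20.7% of 121 ciRNAs and 64.2% of 1246 exonic circRNAs. Among the 3237 exonic circRNAs with a genomic span of 1000 nt or less, 66.4% were higher in A. Of the 97 ciRNAs with values in both groups, 29 were higher in A (29.9%, interval 21.02 to 40.04), against 67.8% of 8010 exonic circRNAs. Their median log2 fold change of A over B in the authors' deposited table was -0.46 (quartiles -1.15 and 0.26), against 0.43 for exonic circRNAs (quartiles -0.20 and 1.10). A change of at least 1 on the log2 scale was given for 14 of the 97 toward A and for 33 toward B.

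**Figure D4:**
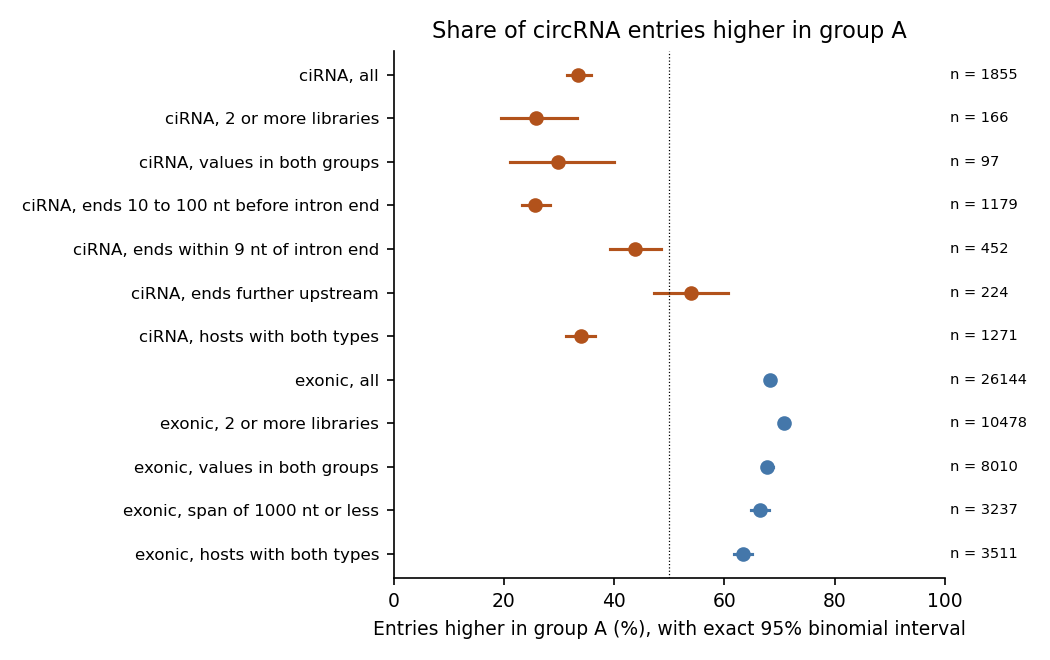
Percent of entries higher in group A (x axis) with its exact 95% binomial interval for sets of ciRNAs (upper rows) and exonic circRNAs (lower rows), from the signs of the authors' fold changes, with the number of entries at the right. All ciRNAs stand at 33.5% and all exonic circRNAs at 68.3%, and among ciRNA sets the circles that end further upstream stand highest, at 54.0%.

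The direction varied with the place where the circle ended. Of entries that ended 10 to 100 nt before the intron end, 303 of 1179 were higher in A by the authors' deposited table (25.7%, interval 23.2 to 28.3). Of those that ended at most 9 nt from the intron end, 198 of 452 were higher in A (43.8%, interval 39.2 to 48.5), and of those further upstream 121 of 224 (54.0%, interval 47.3 to 60.7). In 2 or more libraries the shares were 23.1% of 134, 39.1% of 23 and 33.3% of 9 entries, and with so few entries the intervals of the last 2 reach from 19.7 to 61.5 and from 7.49 to 70.1. Hosts with 2 or more circles numbered 285, of which 27 had every entry higher in A, 119 every entry higher in B and 139 entries on both sides.

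**Figure D5:**
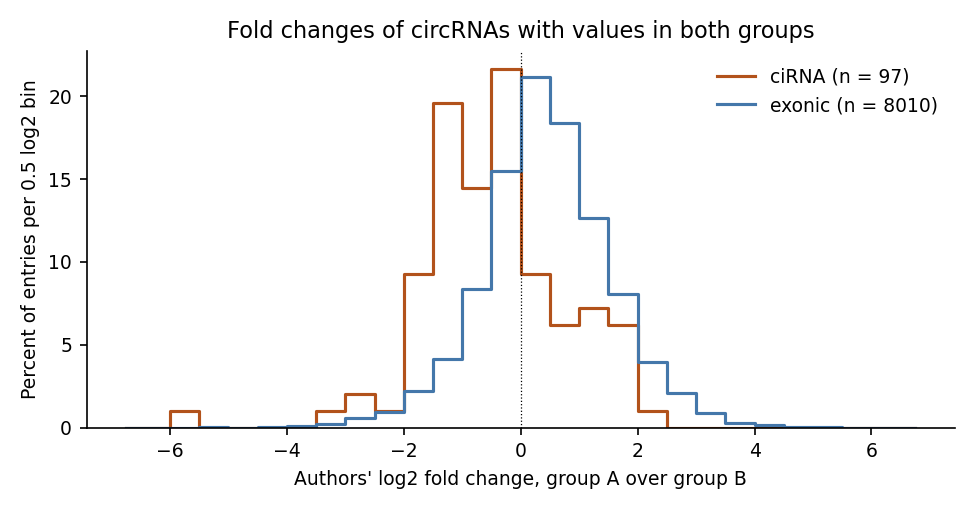
Percent of entries (y axis, per 0.5 log2 bin) by the authors' log2 fold change of group A over group B (x axis), for 97 ciRNAs and 8010 exonic circRNAs with values in both groups. The ciRNAs have their median at -0.46 and the exonic circRNAs at 0.43.

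In the authors' deposited table a total of 14 ciRNA entries (11 circles of 11 hosts) carry a mark of difference, of which 1 points to A and 13 to B. A mark stands for p under 0.05 and a log2 fold change of at least 1 in size, as checked on all 27999 entries. The 14 are 0.755% of ciRNA entries, where 1.75% of all circRNAs were marked, 1.23% toward A and 0.521% toward B. Among entries in 2 or more libraries they are 8.43% of 166, where 4.59% of all such circRNAs were marked. Toward A 1 entry (0.602%) was marked, where 3.22% of all such circRNAs were, and toward B 13 (7.83%), where 1.37% were. The authors' deposited table, which does not name its test, gives 0.522 as the adjusted p of every marked ciRNA, so none of these circles passed at 0.05 after adjustment, and 14 ciRNAs had an unadjusted p under 0.05.

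The smallest p among the marked circles was that of Tpm1. Tpm1, which encodes a tropomyosin that binds actin filaments, had 2 marked entries of 1 circle (chr9:67032028-67032793 and a start 1 nt earlier, minus strand, intron 1 of its named isoform) in B only, each at p = 0.000158 by the authors' deposited table. The circle ended 513 nt from the end of the listed intron and 1 nt from another annotated acceptor that shares its donor. Eif4g1 had 2 marked entries of 1 circle in intron 20 of 32, around the Snord66 sequence shown above. The authors' deposited table gave ciRNA780 (chr16:20684182-20684382) in B only (p = 0.00105) and ciRNA403, with an end 1 nt earlier, a log2 fold change of -2.62 (p = 0.0317). The 5 further entries of this intron were not marked, with ciRNA133 at -3.13 (p = 0.216) and ciRNA402 in A only by the authors' deposited table. Sptan1, a spectrin gene of the membrane skeleton, had ciRNA929 in intron 49 of 56 in B only (p = 0.0209) by the authors' deposited table.

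Acsbg1, Osbpl7 and Gramd1b each gave 1 marked circle in B. Acsbg1, which encodes an acyl-CoA synthetase, had ciRNA967 (chr9:54627987-54628405, minus strand, intron 3 of 13) in B only (p = 0.00345) by the authors' deposited table. Osbpl7, which encodes an oxysterol-binding protein relative, had ciRNA735 in B only (p = 0.0167) and ciRNA4 of the same circle at a log2 fold change of -1.15 (p = 0.0361) by the authors' deposited table. This is the circle printed in full above, from intron 11 of 22. Gramd1b, which encodes a sterol transporter between membranes, had ciRNA964 (chr9:40308029-40308292, minus strand, intron 2 of 11) in B only (p = 0.0181) by the authors' deposited table. Of the exonic circRNAs of these hosts, none was marked. All 6 of Acsbg1 and all 3 of Gramd1b were also higher in B by the authors' deposited table, and Osbpl7 had none.

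The last 5 marked circles came from Arhgef17, Trappc4, Sugp2, 2310067B10Rik and Ppan. Arhgef17, a guanine nucleotide exchange factor gene, had ciRNA849 (chr7:100881415-100881692, minus strand, intron 10 of 20) in B only (p = 0.00328) by the authors' deposited table. Entries ciRNA848 and ciRNA1155 of the same circle were also in B only and were not marked. Another circle of this intron, ciRNA172, ended 3 nt from the intron end. By the authors' deposited table ciRNA172 was in A only, in 2 or more libraries, and was not marked. Trappc4, a gene of a vesicle tethering complex, had ciRNA270 (chr9:44404128-44404333, minus strand, its last intron) at a log2 fold change of -1.88 (p = 0.0204) by the authors' deposited table, with a value in both groups. Sugp2, which encodes a protein related to splicing factors, had ciRNA989 (chr8:70261318-70262847, plus strand, last intron of 10) in B only (p = 0.023) by the authors' deposited table. 2310067B10Rik had ciRNA739 in intron 4 of 31 in B only (p = 0.021) by the authors' deposited table. Another entry of this circle, ciRNA341, had values in both groups at a log2 fold change of -0.17 by the authors' deposited table. This entry was not marked, and ciRNA1375 of the same circle was in B only, in 1 library. Ppan, which encodes a nucleolar protein of ribosome assembly, gave the single mark toward A, with ciRNA57 (chr9:20889942-20890614, plus strand, intron 5 of 10) in A only (p = 0.0286) by the authors' deposited table. Exonic circRNAs of marked hosts lay on either side of the comparison. In the authors' deposited table those of Ppan were both higher in B, and those of Sugp2 (3), Tpm1 (1), Trappc4 (1) and Arhgef17 (1) were higher in A. Those of 2310067B10Rik were split, with 2 toward A and 2 toward B, while Eif4g1 had 3 and 1 and Sptan1 12 and 5. No host carried both a marked ciRNA and a marked exonic circRNA.

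Among ciRNAs with values in both groups, large fold changes were mostly not marked, and the circles named here were chosen after their values were seen. Sgk1, a kinase gene that responds to steroid hormones, had ciRNA354 in intron 9 of 13 at -5.53 (p = 0.203) by the authors' deposited table. After Eif4g1 ciRNA133, given above, came ciRNA62 of the ribosomal protein gene Rpsa at -2.93 (p = 0.226), and after the marked Eif4g1 ciRNA403 came ciRNA83 of Jag2, which encodes a Notch ligand, at -2.35 (p = 0.139) by the authors' deposited table. Toward A the authors' deposited table gave 2.04 to ciRNA92 of the collagen gene Col1a1 (p = 0.531), 1.999 to ciRNA190 of Cmas, an enzyme gene of sialic acid metabolism (p = 0.334), and 1.95 to ciRNA120 of Flywch1 (p = 0.317). Another Col1a1 entry with an end 1 nt later, ciRNA733, was listed in B only, in a single library, so the 2 entries of this circle lay on opposite sides.

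Steroid and cholesterol synthesis genes with ciRNAs had all of them on the side of B. Of the 32 genes of this list, 10 had ciRNAs, with 19 entries (18 circles), none higher in A and 19 higher in B by the authors' deposited table, each in 1 library and none marked. Over all ciRNAs 66.5% were higher in B. Cyp11a1, the cholesterol side-chain cleavage enzyme, gave 5 circles from 3 introns, of which ciRNA970 held the whole of intron 7 (478 nt), ciRNA971 ended 24 nt and ciRNA1816 275 nt before its end. Fdps, Por and Srebf2, genes of isoprenoid synthesis, electron transfer to cytochromes P450 and sterol control, were among the others, as were Hmgcs1, Scap, Soat1, Srebf1 and Abca1. The exonic circRNAs of this list had 26 higher in A and 50 higher in B.

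Granulosa cell genes were on the same side, apart from 1 entry. Of 26 genes 4 had ciRNAs, with 8 entries, 1 higher in A and 7 higher in B by the authors' deposited table. Over all ciRNA entries 66.5% were higher in B, and the list was not tested against this share. Amh, the anti-Müllerian hormone gene, and Inha, the inhibin alpha gene, had 1 circle each in B, of 351 and 1780 nt. Greb1, an estrogen-responsive gene, had 5 entries in B, 3 of them in a 569 nt intron with ends at 24, 25 and 47 nt. Only ciRNA1022 of Greb1 had a value in 2 or more libraries (B only, p = 0.196 by the authors' deposited table). Slc18a2 had the entry in A.

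Oocyte and meiosis genes had few ciRNAs, all on the side of A. Of 24 oocyte genes only Zp3, a zona pellucida gene (790 nt), and Sohlh1, a transcription factor gene of early oocytes (589 nt), had 1 each. Of 20 meiosis genes only the cohesin gene Rec8 had ciRNAs, 192 and 325 nt long. All 4 entries were listed in A only by the authors' deposited table, each in 1 library, and all 4 ended at the intron end or 1 nt before it. Over all ciRNAs 33.5% were higher in A and 24.3% of circles ended at most 9 nt from the intron end. With 4 entries no direction can be drawn for these lists. The exonic circRNAs of the lists had 11 higher in A and 3 higher in B (oocyte genes) and 29 and 2 (meiosis).

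Collagen and extracellular matrix genes had ciRNAs on both sides. Of 30 genes 15 had ciRNAs, with 29 entries, 16 higher in A and 13 higher in B by the authors' deposited table. Their 3 entries found in 2 or more libraries all lay toward A, none of them marked. Fibrillar collagen hosts were Col1a1, Col1a2, Col3a1 and Col5a1, and basement membrane hosts included Col4a2, Hspg2, Lama1 and Lamc1. The exonic circRNAs of this list had 96 higher in A and 25 higher in B. Of 26 genes of the actin and smooth muscle cytoskeleton 7 had ciRNAs, with 2 entries toward A and 9 toward B, which include the 2 marked entries of Tpm1. Over all ciRNA entries 33.5% were higher in A, and neither list was tested against this share.

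For 4 further lists the counts are given beside the 33.5% of all ciRNA entries that were higher in A. Genes were matched by symbol as spelled in the lists. The counts therefore leave out ciRNA1797 of HNRNPU, a splicing list gene spelled otherwise in the lists. They also leave out ciRNA88 and ciRNA725 of Gnb2l1, another symbol of the snoRNA host gene Rack1. All of these left-out entries were higher in B by the authors' deposited table. Of 42 RNA splicing and RNA-binding protein genes 16 had ciRNAs (10 entries higher in A, 13 higher in B), among them Srrm2, Srsf2, Srsf3, U2af1 and U2af2, and of 34 chromatin regulators 15 did (11 and 17), among them Dnmt1, Dnmt3a, Dnmt3b and Uhrf1. Of 22 snoRNA host genes 11 had ciRNAs (6 and 10), and of 31 genes of cell division and DNA replication 4 did (1 and 4), with Mki67, Aurka and Mcm7 in B and Incenp at 1.37 toward A (p = 0.613) by the authors' deposited table. None of the entries of these 4 lists was marked, where 0.755% of all ciRNA entries were.

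Among markers of other cell types, 3 of 13 endothelial genes, Kdr, Tek and Tie1, had 1 entry each, all higher in B. Over all ciRNA entries 66.5% were higher in B. None of the 16 leukocyte, 13 oviduct and surface epithelium or 10 erythroid genes listed had a ciRNA. Only 2, 5 and 1 of them were in the table at all, with exonic circRNAs. These lists, like the endothelial one, are short and do not hold every gene of a cell type. Outside them, some further immune and vascular genes, picked without a rule, lay on either side. Listed in A only were ciRNA49 of S100a8, ciRNA583 of Cd53 and ciRNA265 of Cd34. Listed in B only were ciRNA1253 of Fcgr2b, ciRNA1439 of H2-Ab1, ciRNA1123 of Csf2rb2 and ciRNA1298 of Dok3. All but ciRNA49 were found in 1 library, and no direction can be drawn from these picks. Ankrd52, Mcm5 and Sirt7, whose human orthologs gave well-studied ciRNAs, had exonic circRNAs (4 in all) and no ciRNA in this table. A gene without a ciRNA may lie under the detection limit of these libraries, whose depth is unknown here.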

How the data were processed

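RNase R-treated RNA of 3 adult and 3 neonatal mouse ovary libraries was measured. Bowtie 0.12.2 and GRCm38 are named in the submitters' processing notes; caller, filters and test: not given in the sources used here. Both deposited files list 27999 circRNAs, with 1 line of each not analysed here. Log2 fold changes of group A over B, p-values and adjusted p-values are the authors' own, per the file headers. Because A and B match no sample label, 24 columns of values per library and 2 of group means were not used, so depth per library is unknown. The values of 2 ciRNAs in these columns were seen when the file was opened. The members, lists and tests were chosen with earlier results of these data known.

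Entries were joined, placed on GENCODE M21 introns and matched by the symbols of the table. Joining was tested on simulated circles with well separated starts, so circles that share a donor were not simulated. Intron sequence came from GENCODE transcripts. Intervals are exact Clopper-Pearson intervals (scipy 1.17.1, pandas 2.3.3). Named are marked ciRNAs, hosts with most circles, longest and shortest circles, introns with most circles, 15 gene lists and circles with small RNA genes. No test was run.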

Additional observations from a re-analysis of the deposited data

How the results depend on the processing

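Joining entries within 0 or 5 nt gave 1855 and 1748 circles in place of 1775. Counting only entries in 2 or more libraries left 157 circles, with a median span of 373 nt and 81.5% ending 10 to 100 nt before the intron end, against 63.4% of all circles. Windows of 11 nt gave 65.0% G or T at the start and 30.01% C before the end, and in the other introns 62.8% and 28.5%. With other introns under 159 nt left out, chosen after seeing the data, 75.1% of circles came from an intron shorter than the median of the others. Over all entries 33.5% of ciRNAs were higher in A, against 25.9% in 2 or more libraries, and both lie under 50%. With an adjusted p of 0.05 the number of called ciRNAs was 0, against 14 marked and 14 at an unadjusted p under 0.05. Each alternative counts another set of entries, introns or bases, and the cause of the shifts was not tested. Leaving out each library in turn was not run. No paired analysis was possible because the columns of values match no sample label. The depth of the libraries is unknown, so a circle that is missing from a library may lie under its detection limit.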
